A study of Mus musculus with 68 samples.

Results

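A set of 9 matrix genes measured in single cells of the developing mouse cerebral cortex is described here: the lecticans neurocan (Ncan), brevican (Bcan), versican (Vcan) and aggrecan (Acan), the tenascins Tnc and Tnr, the link protein Hapln1, and Sparc and Sparcl1. The members are all 25 probe sets that the array annotation gives to these 9 genes, out of 45101 on the genome-wide Affymetrix mouse expression array, and each of the 25 names 1 gene only. A total of 68 arrays were analysed, and each held the amplified cDNA of 1 cell from CD1 mice. The E11 group had 30 cells from the dorso-lateral cerebral wall, and the E16 group had 28 cells from the ventricular and subventricular zones of that wall. The remaining 3 groups were labelled apical progenitors (APs), the cells that line the ventricle and divide there. They were 3 cells taken at E12, 3 cells from E11 wall grown for 3 days in vitro as neurospheres at high density with EGF and FGF2, and 4 cells taken from pieces of the ventricular and subventricular zones at E14 that overexpressed NICD and p18. NICD is the intracellular domain of Notch1 and p18 is the cell-cycle inhibitor Cdkn2c. Both were introduced 3 days earlier by in vivo electroporation at E11 from plasmids with the general promoters CAG and EF, and the picked cells were EGFP-positive. No cells electroporated with EGFP alone were among these arrays.

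All cells had been chosen by the study among amplified cells for their marker levels in qPCR, so shares of cells are shares among the chosen cells. No label ties a cell to an embryo, litter or culture. Each group therefore counts as 1 sample, no test between groups was possible, and every error given below is the SD between cells.

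The extracellular matrix of the brain holds little fibrous collagen and is built on hyaluronan, a long sugar polymer made at the cell surface. Lecticans are chondroitin sulphate proteoglycans that bind hyaluronan at one end and tenascins at the other, and link proteins such as Hapln1 lock the lectican to the hyaluronan. In the embryonic cortex, radial progenitors are known to make Tnc, and Tnr and aggrecan are best known from later oligodendrocytes, neurons and the nets around neurons. Sparc and Sparcl1 (hevin) are secreted matricellular proteins known from radial glia, vessels and astrocytes.

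Signals were quantile normalized over the 68 arrays and are given as log2 values. Poly(A) phe RNA had been added to each cell lysate at 20 copies, and the median signal of its probe set, 842.4 or 9.72 on the log2 scale, is called the 20-copy signal. A gene was said to be past the fold where mean log2 signals differed by at least 2.5 (5.66-fold) and the higher mean reached the 20-copy signal. A fold is given as at least the higher geometric mean divided by the 20-copy signal where the whole lower set lay under that signal. Where part of the lower set reached it, as for Ncan, Vcan and Sparc in E11 AP-like cells, the quotient is no bound. It is then given as a multiple of the 20-copy signal. Levels of different probe sets are not set against each other.

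Because the labels of E11 and E16 cells give no cell type, these cells were clustered within each stage on 35 marker genes, none of them a member. At E11 the clusters held 19 AP-like cells, 2 IP-like cells (intermediate progenitors, led by Eomes, Neurog1 and Insm1), 4 neuron-like cells (led by Dcx and Tbr1) and 4 cells that stayed unnamed. At E16 they held 17 AP-like cells, 5 IP-like cells (led by Gadd45g and Neurog2), 4 neuron-like cells (led by Neurod1 and Neurod6) and 2 unnamed cells. Sparc is itself among the 10 genes that lead the E16 AP-like cluster, although it was not used to form it. The AP-like name rests on 1 marker, Ttyh1, among the 10 leading genes at each stage, with the cluster mean of 7 AP markers at or above the 20-copy signal at E11 and of 8 at E16. In the E16 IP-like cluster the means of 7 IP markers and also of 7 AP markers were at or above it. One E11 cell of low quality, E11-31i, was left out of all comparisons, leaving 29 E11 cells.

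The 20-copy spike itself ranged from 4.83 to 11.93 over the E11 cells and from 6.55 to 12.70 over the E16 cells. A value under the line in 1 cell therefore does not show that the transcript was absent. Trimmed mean signals as deposited were 47.5 to 298 on the E11 and E16 arrays and 500 on each of the other 10 arrays. Gapdh differed little between groups, with means of 13.47 ± 0.18 (SD, n = 29) in E11 cells and 13.44 ± 0.19 (SD, n = 28) in E16 cells. For Actb the means were 12.18 ± 0.66 (SD, n = 29) and 12.44 ± 0.56 (SD, n = 28).

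Of the 25 member probe sets, 13 reached the 20-copy signal in at least 1 of the 68 cells and 12 did not. The 13 belong to 7 genes, and 1 of them, for Sparc, passed only through E11-31i, at 9.87. Aggrecan (1 probe set) and Hapln1 (4 probe sets) had none, and over the 67 cells without E11-31i they ranged from 1.69 to 6.76 for Acan and from -2.41 to 4.67 for Hapln1. For each of the other 7 genes, the probe set with the highest mean signal was taken as the lead.

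Upstream sequence is shown for Ncan, Bcan and Tnc, the genes that were past the fold in both the neurosphere and the NICD/p18 cells. NICD acts through the DNA-binding factor RBPJ, and the letters TGGGAA of its core site were searched on both strands in the 250 bases before the start. The sequences are from RefSeq, build GRCm38.p6, minus strand for all 3 genes, and lie at chr8:70120845-70121094 (Ncan), chr3:88000357-88000606 (Bcan) and chr4:64046937-64047186 (Tnc). Capitals mark TGGGAA or its complement TTCCCA, and TATAAA or its complement TTTATA.
Ncan: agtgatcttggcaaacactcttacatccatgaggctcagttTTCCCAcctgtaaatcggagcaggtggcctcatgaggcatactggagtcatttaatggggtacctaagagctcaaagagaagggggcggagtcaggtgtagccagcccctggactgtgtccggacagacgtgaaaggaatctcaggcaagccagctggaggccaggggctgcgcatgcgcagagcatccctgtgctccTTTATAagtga
Bcan: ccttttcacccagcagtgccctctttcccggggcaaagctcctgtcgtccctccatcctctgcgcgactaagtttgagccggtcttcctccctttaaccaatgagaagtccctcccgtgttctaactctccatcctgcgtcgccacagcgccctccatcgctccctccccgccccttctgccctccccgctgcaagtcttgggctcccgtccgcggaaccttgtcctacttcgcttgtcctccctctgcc
Tnc: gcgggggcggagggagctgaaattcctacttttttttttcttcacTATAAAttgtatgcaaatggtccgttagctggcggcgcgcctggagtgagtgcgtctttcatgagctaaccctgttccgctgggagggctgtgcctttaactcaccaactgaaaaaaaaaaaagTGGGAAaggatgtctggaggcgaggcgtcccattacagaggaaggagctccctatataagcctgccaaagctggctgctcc
The TGGGAA letters began at base -209 from the start in Ncan and at -81 in Tnc, and were not in the Bcan window. A second Tnc start in the table, whose window overlaps the printed one, had them at -250. Vcan held them at -187 and Tnr at -39, while Acan, Hapln1 and Sparc did not, so that 4 of 8 members with a promoter in the table held a match. Of all 32851 promoter windows, 21.6% held these letters. TATAAA was found in Ncan and Tnc and in 12.4% of all windows. The AP-1 letters TGANTCA (6.75% of windows) and the NFI motif (0.0365%) were in none of the 8 members' windows. Sparcl1 had no entry. A match describes the letters and is not a site of binding.

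Counting over the 13 probe sets that passed the filter, 1 was past the fold and higher in E16 than in E11 cells (Ncan) and 0 lower, against 0.299% and 0.294% of all 20721 probe sets. Among AP-like cells 3 were higher at E16 (Ncan, Tnc and Sparc) and 0 lower, against 0.666% and 0.835%. Between E11 IP-like and AP-like cells 0 members were past the fold in either direction, against 3.62% higher and 2.61% lower, with only 2 IP-like cells. Between E16 IP-like and AP-like cells 0 were higher and 2 lower (Tnc and Sparc), against 1.18% and 0.738%. The median difference over all genes lay between -0.29 and -0.01 in these 4 comparisons.

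Neurocan, which binds hyaluronan, Tnc and neural cell adhesion molecules, was split among E11 cells and at or above the 20-copy signal in every E16 AP-like cell. With the lead probe set, 14 of 29 E11 cells reached the 20-copy signal (48.3%, exact 95% interval 29.4 to 67.5) and 24 of 28 E16 cells did (85.7%, 67.3 to 96). The E11 AP-like cells formed 2 sets of values. Of the 19, 9 lay between 10.21 and 11.61 and the other 10 between 2.32 and 5.12, with none between. All 17 E16 AP-like cells lay between 10.99 and 13.47 around a median of 11.76. Their mean of 11.91 ± 0.80 (SD, n = 17) was past the fold against 7.25 ± 3.54 (SD, n = 19). The E16 mean was 4.56 times the 20-copy signal on the linear scale.

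Neurocan was also high in cells with neuronal markers. The 4 E11 neuron-like cells stood at 10.81, 11.71, 11.74 and 11.88, 1 within and 3 just above the upper set of E11 AP-like values. Both E11 IP-like cells were low, at 4.05 and 4.29. Of the 4 E16 neuron-like cells, 3 reached the 20-copy signal, at 12.53, 12.46 and 11.08, and 1 lay just under it at 9.61. Of the 5 E16 IP-like cells, 4 were above the 20-copy signal, up to 12.81, and the fifth was at 4.35. Over all E16 and E11 cells the means were 11.22 ± 2.18 (SD, n = 28) and 7.36 ± 3.73 (SD, n = 29), a difference of 3.86 past the fold. The second Ncan probe set reached the 20-copy signal in 3 of the 57 cells, all 3 also high with the lead probe set, and its values followed the lead weakly (Spearman's rho 0.28 over 57 cells).

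Brevican, the shortest lectican, was at low signal in every E11 cell. With the lead probe set the 29 E11 cells ranged from 0.44 to 6.04 around 2.77, and none reached the 20-copy signal. At E16, 10 of 28 cells did (35.7%, exact 95% interval 18.6 to 55.9), of which 8 were AP-like and 2 IP-like. The 17 E16 AP-like cells were spread from 4.06 to 13.29 around a median of 9.27. Their mean of 8.95 ± 3.05 (SD, n = 17) lay 6.59 above the E11 AP-like mean of 2.36 ± 1.54 (SD, n = 19), but under the 20-copy signal and so not past the fold. The IP-like cells ranged from 1.66 to 12.61 and the 4 E16 neuron-like cells from 0.60 to 5.98. Every E16 cell with Bcan at or above the 20-copy signal also had Tnc there, 10 of 10, while 10 of the 20 Tnc cells had Bcan. The second Bcan probe set reached that signal in only 5 of the 57 cells, all 5 also high with the lead (Spearman's rho 0.48). Its E16 and E11 AP-like means were 6.57 ± 3.17 (SD, n = 17) and 3.91 ± 1.17 (SD, n = 19), a difference of 2.66.

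Versican, the widely expressed large lectican, ran the other way in its mean, without passing the fold. The lead probe set showed that 10 of 29 E11 cells (34.5%, exact 95% interval 17.9 to 54.3) and 4 of 28 E16 cells (14.3%, 4.03 to 32.7) reached the 20-copy signal. The E11 AP-like cells ranged from -0.29 to 12.20 around 9.05, and the E16 AP-like cells from 0.64 to 11.35 around 3.29. Their means were 6.77 ± 4.47 (SD, n = 19) and 4.24 ± 3.62 (SD, n = 17), a difference smaller than either SD. Of the 4 E11 neuron-like cells, 3 were high, at 10.42, 10.51 and 11.04, and the fourth was at 6.83. Among the 19 E11 AP-like cells, 3 had both Ncan and Vcan at or above the 20-copy signal, 6 had Ncan alone, 4 had Vcan alone and 6 had neither. Of the 8 Vcan probe sets, 6 did not pass the filter. The second that passed reached the 20-copy signal in 1 of the 57 cells, and its values did not follow the lead (Spearman's rho 0.02 over 57 cells).

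Tnc (tenascin-C), a large hexameric matrix glycoprotein, was under the 20-copy signal in every E11 cell and above it in every E16 AP-like cell. With the lead probe set, the 29 E11 cells ranged from -0.19 to 4.39 with a median of 3.07. A count of 0 in 29 cells allows a share of up to 10.3%. At E16, 20 of 28 cells reached it (71.4%, exact 95% interval 51.3 to 86.8), with a range from 1.80 to 13.68 and a median of 11.51. The E16 cells as a whole had a mean of 9.68 ± 3.84 (SD, n = 28), just under the 20-copy signal, so that the difference of 7.04 from the E11 mean of 2.63 ± 1.19 (SD, n = 29) did not count as past the fold. Over medians instead of means it did.

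Among AP-like cells the 2 stages did not overlap in Tnc, and the share of all probe sets without overlap was not counted. The 17 E16 AP-like cells ranged from 9.81 to 13.68 around a median of 11.97, and the 19 E11 AP-like cells from 0.98 to 4.39 around a median of 2.98. All 17 of the former and none of the latter reached the 20-copy signal. Their means were 11.88 ± 1.12 (SD, n = 17) and 2.59 ± 1.14 (SD, n = 19), an at least 4.47-fold difference. The second Tnc probe set had means of 7.27 ± 4.09 (SD, n = 17) and -0.23 ± 1.38 (SD, n = 19), and reached the 20-copy signal in 5 of 17 and 0 of 19 cells.

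Other E16 cells split in Tnc. In the 5 IP-like cells the values were 12.02, 11.87, 11.11, 2.27 and 1.80, so that 3 were as high as AP-like cells and 2 as low as E11 cells. The 4 neuron-like cells were all low, at 6.46, 4.27, 3.98 and 2.21. One of the 2 unnamed cells was at 9.52 and the other at 3.50. The IP-like mean of 7.81 ± 5.29 (SD, n = 5) differed by -4.06 from the AP-like mean, past the fold, while the medians differed by -0.85.

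Tnr, the tenascin of oligodendrocytes and some neurons, reached the 20-copy signal in 1 of the 57 cells. That E16 neuron-like cell was at 9.74, next to the 20-copy signal of 9.72, and the other 27 E16 cells and all 29 E11 cells were lower. In the E11 AP-like cells Tnr ranged from -1.52 to 3.55.

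**Figure D1:**
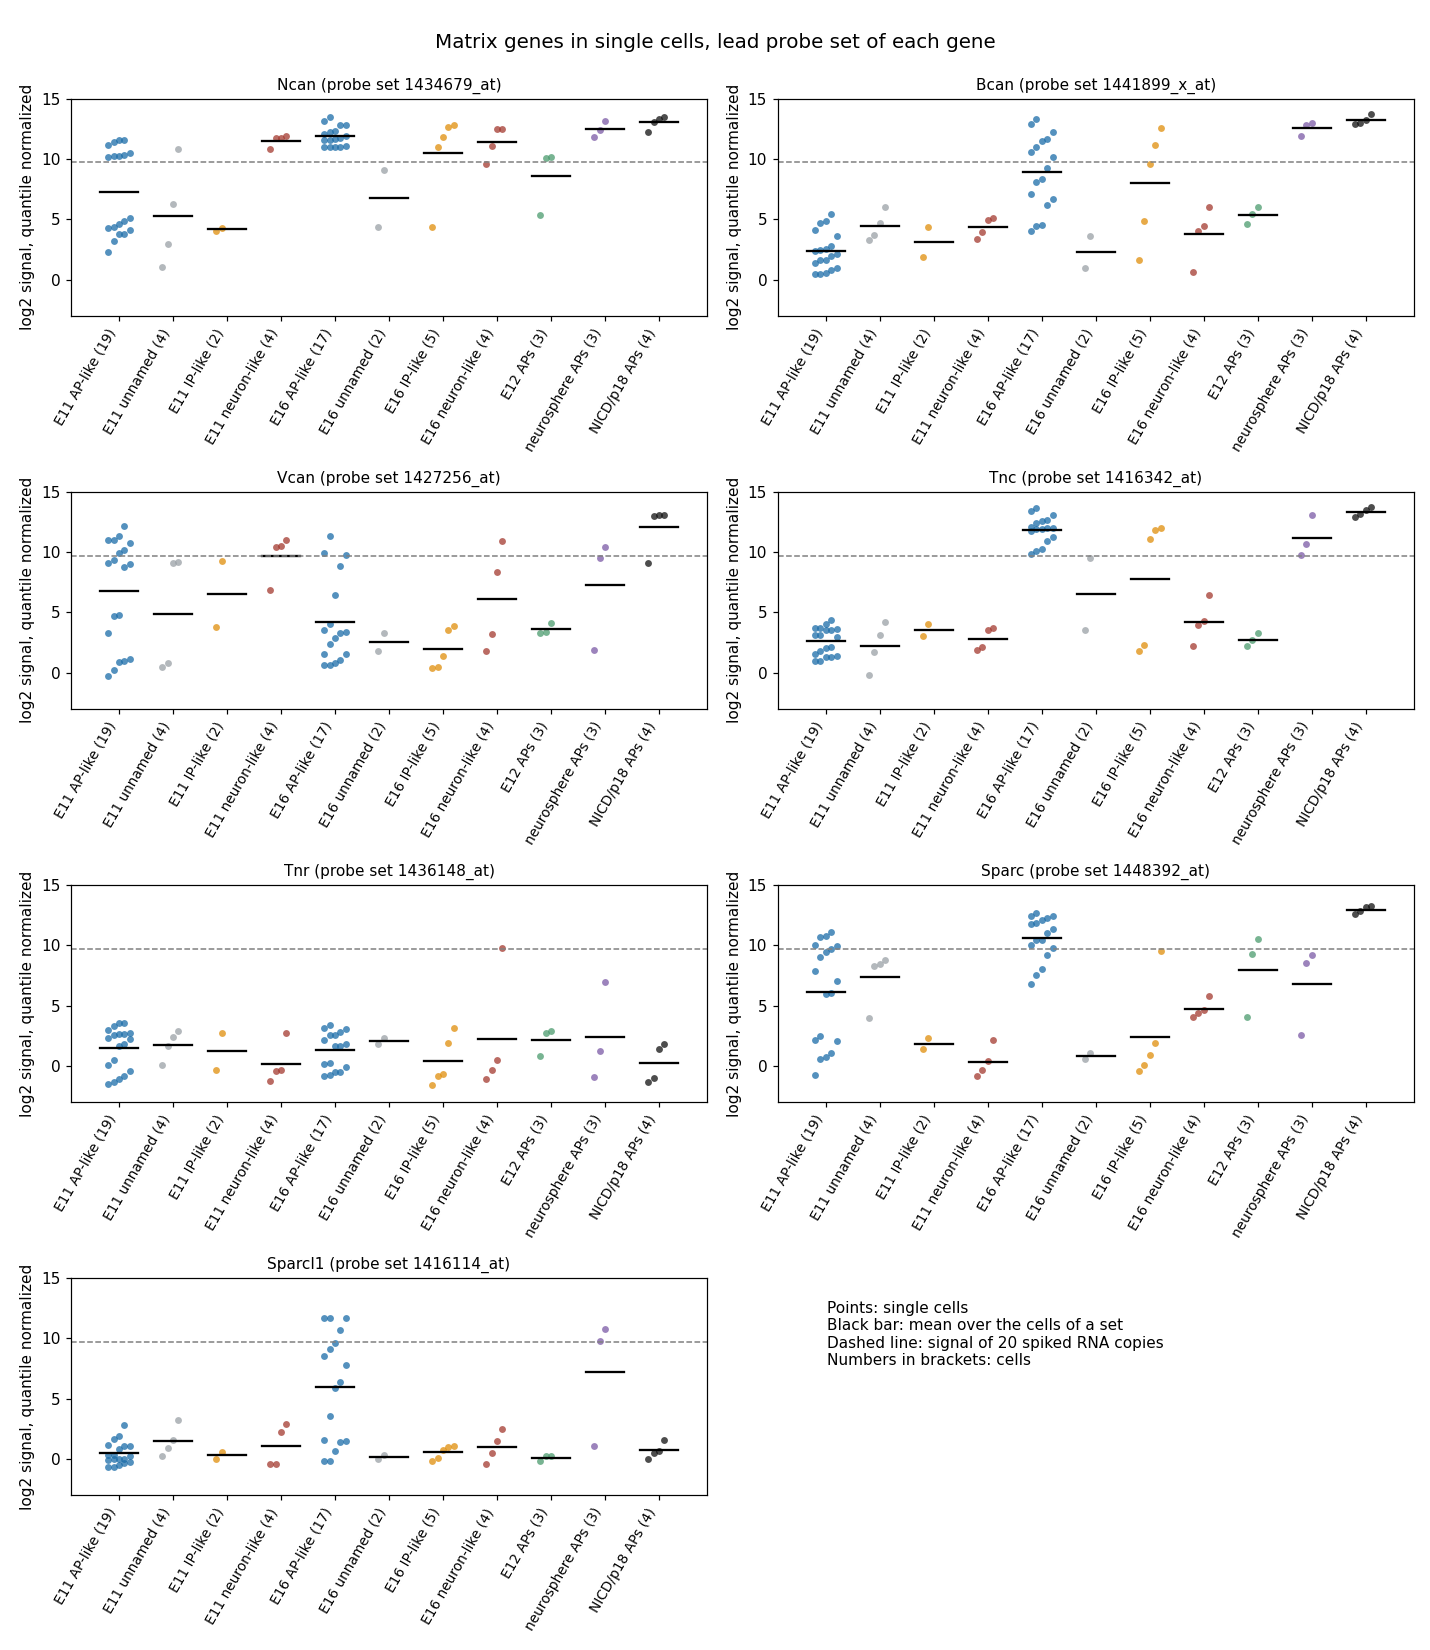
Log2 signal of the lead probe set of 7 matrix genes in each of 67 single cells, by stage and marker-based class, with cell numbers in brackets, the mean of each set as a black bar and the 20-copy signal (9.72) as a dashed line. Tnc lies from 0.98 to 4.39 in E11 AP-like cells and from 9.81 to 13.68 in E16 AP-like cells, and Ncan falls into 2 sets of values in E11 AP-like cells.

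Sparc, a collagen-binding glycoprotein that modulates cell adhesion, was high in many AP-like cells and in no neuron-like cell. By the lead probe set, 5 of 29 E11 cells (17.2%, exact 95% interval 5.85 to 35.8) and 13 of 28 E16 cells (46.4%, 27.5 to 66.1) reached the 20-copy signal, and all of these 18 were AP-like. The E11 AP-like cells ranged from -0.78 to 11.12 around 7.03 and the E16 AP-like cells from 6.82 to 12.66 around 11.03. The means of 10.60 ± 1.82 (SD, n = 17) and 6.09 ± 4.16 (SD, n = 19) were past the fold, although the cells overlapped. The E16 mean was 1.84 times the 20-copy signal. Against the E16 AP-like cells, the 5 IP-like cells were low, with 4 values between -0.42 and 1.86 and 1 at 9.54. Their mean was 2.39 ± 4.09 (SD, n = 5), a difference of -8.22 past the fold. The 4 neuron-like cells lay between -0.88 and 2.18 at E11 and between 4.08 and 5.75 at E16.

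The second Sparc probe set reached the 20-copy signal in 1 of 29 E11 and 4 of 28 E16 cells, and the remaining one in none of these 57. Sparcl1 was near the bottom of the scale in E11 cells, from -0.64 to 3.19. At E16 it reached the 20-copy signal in 4 of 28 cells, all AP-like (14.3%, exact 95% interval 4.03 to 32.7), and all 4 also had Sparc there. The E16 AP-like cells ran from -0.19 to 11.72 around 6.36, whereas the 5 IP-like cells stayed between -0.14 and 1.06 and the 4 neuron-like cells between -0.42 and 2.46. The E16 AP-like mean of 5.97 ± 4.50 (SD, n = 17) lay under the 20-copy signal.

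**Figure D2:**
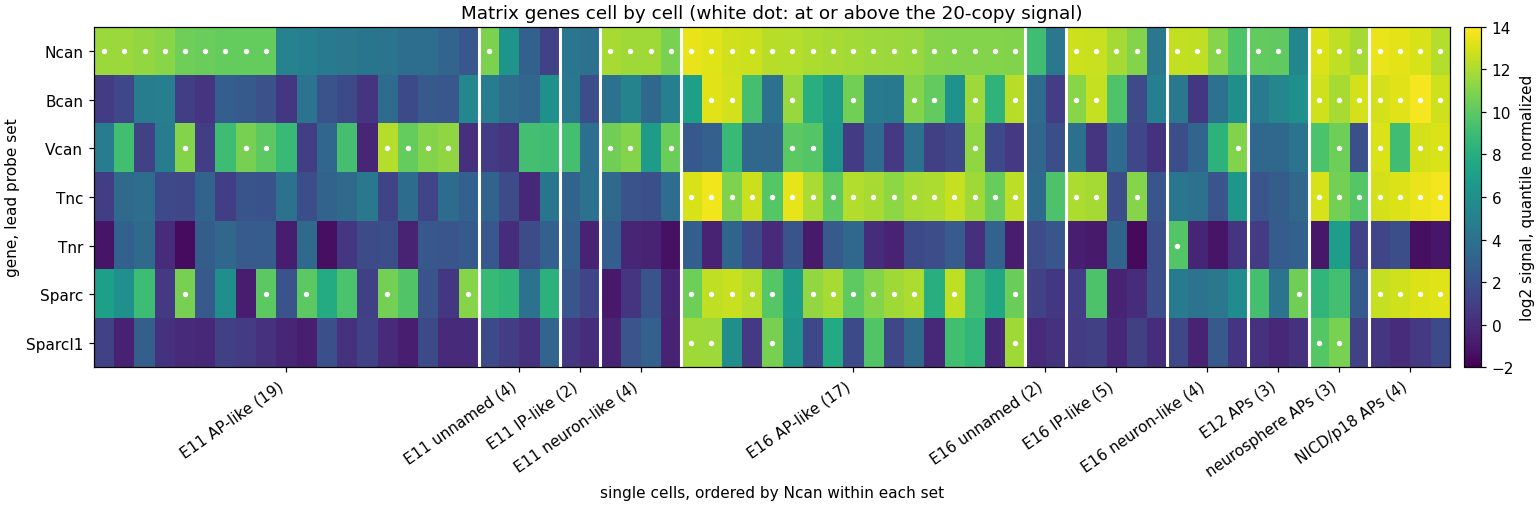
Log2 signal (colour) of the 7 lead probe sets in rows and 67 single cells in columns, grouped by stage and class and ordered by Ncan within each set, with a white dot at or above the 20-copy signal. Every E16 AP-like cell has a dot for Ncan and Tnc, 8 of 17 for Bcan, 13 for Sparc and 4 for Sparcl1.

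The number of members per cell was counted next. An E11 AP-like cell had between 0 and 3 of the 7 genes at or above the 20-copy signal, with a median of 1, and an E16 AP-like cell had between 2 and 5, with a median of 4. Within the 17 E16 AP-like cells Spearman's rho was 0.26 for Ncan with Tnc, 0.40 for Bcan with Tnc, 0.07 for Bcan with Sparc and 0.10 for Tnc with Sparc. These values are a description, since cells share stage and array depth.

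The genes most like each member across the 57 E11 and E16 cells were ranked by Spearman's rho over their lead probe sets. For Tnc they were Rlbp1 (0.76), Vit (0.75) and Ptn (0.75), and for Ncan they were Rtn1 (0.67), Ptn (0.64) and Rlbp1 (0.61). For Bcan they were Aldh1l1 (0.69), Aldoc (0.69) and Ccdc80 (0.67), for Sparc they were Mt1 (0.70), Fgfbp3 (0.67) and Psat1 (0.63), and for Vcan no gene exceeded 0.47. Over the 17 E16 AP-like cells alone, rho was 0.53 for Tnc with Rlbp1 but 0.14 for Tnc with Ptn, and -0.03 for Ncan with Ptn. Tnr and Sparcl1 were high in too few cells to be ranked.

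Markers of other cell types were checked beside these values. The 8 endothelial markers, which include Cldn5, stayed under the 20-copy signal in every E11 and E16 cell. Of 7 pericyte and 8 mesenchymal markers, 1 each (Pdgfrb and Col1a2) reached it in at least 1 E16 AP-like cell, and of 8 microglial markers 2 did (Csf1r and Tyrobp), with none of the 3 lists reaching it in E11 cells. Their highest summed log2 signals in E16 AP-like cells were 11.50, 10.43 and 13.74, and their medians 5.90, 7.08 and 6.38. Of 5 oligodendrocyte precursor markers, Olig1 and Olig2 reached it in E16 AP-like cells, whose summed signals were 3.76 to 13.03 against 3.68 to 6.64 in E11 AP-like cells. Of the 4 measured erythroid markers, 3 (Alas2, Hbb-bh1 and Hbb-y) reached it in E11 AP-like cells, up to a summed signal of 15.06. In E11 neuron-like cells, where Ncan and Vcan were high, 4 of 6 Cajal-Retzius markers (Reln, Calb2, Ebf2 and Lhx5) reached it, with summed signals from 6.30 to 14.20. Of 7 astrocyte markers, Aldoc, Aldh1l1 and Slc1a2 reached it in E16 AP-like cells, whose summed signals were 11.36 to 14.07, and Aldoc and Slc1a2 did in E11 AP-like cells, at 5.50 to 10.38. The part of these markers in the matrix values was not tested.

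E12 APs were compared with E11 AP-like cells as the next stage measured. Ncan was split as at E11, at 10.18, 10.12 and 5.37. Bcan lay at 4.57, 5.43 and 6.04 and Vcan at 3.33, 3.38 and 4.10. Tnc was at 2.23, 2.69 and 3.26, inside the E11 AP-like range, and Sparc was at 10.54, 9.25 and 4.08. No member was past the fold, higher or lower, against 1.77% and 0.338% of all probe sets. Without the first E12 cell Sparc was past the fold, and without the third Ncan was. For Bcan and Tnc, with 0 of 3 cells at or above the 20-copy signal, the exact 95% interval reached 70.8%.

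Neurosphere APs had Ncan, Bcan and Tnc past the fold against E11 AP-like cells. Ncan stood at 11.86, 12.44 and 13.15, above every E11 AP-like cell, and its mean was 6.79 times the 20-copy signal. Brevican stood at 11.89, 12.84 and 12.99 with the lead probe set and at 6.84, 11.07 and 11.61 with the second, at least 7.23-fold and 1.09-fold higher. The second Bcan probe set was no longer past the fold without the cell at 11.07 or without the cell at 11.61. Tnc stood at 9.75, 10.65 and 13.06, also above every E11 AP-like cell, and was at least 2.71-fold higher. The share of all probe sets above every E11 AP-like cell was not counted. The neurosphere and E16 AP-like means lay at 12.48 and 11.91 for Ncan, 11.15 and 11.88 for Tnc, and 12.57 and 8.95 for Bcan, where the gap of 3.63 was over the pooled SD of 2.88.

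The other members overlapped with E11 AP-like cells in at least 1 neurosphere cell. Sparc was under the 20-copy signal in all 3, at 2.53, 8.50 and 9.23, and Vcan was at 1.92, 9.48 and 10.44. Sparcl1 was high in 2 of 3 cells, at 9.78 and 10.79, and at 1.07 in the remaining one. The highest Tnr value of these 3 cells, 6.99, was in the neurosphere cell with Sparcl1 at 10.79. In all, 4 member probe sets of 3 genes were past the fold and higher, and 0 lower, against 2.09% and 0.623% of all probe sets. Without the cell with Vcan at 1.92, 6 were higher, with Vcan, Sparcl1 and the second Tnc probe set added and the second Bcan probe set lost.

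Oligodendrocyte precursor markers were high in the same cells. Olig1 was at 13.22 ± 0.45 (SD, n = 3) in neurosphere APs and at 2.08 ± 1.25 (SD, n = 19) in E11 AP-like cells. All 5 such markers (Olig1, Olig2, Sox10, Gpr17 and Pdgfra) reached the 20-copy signal in at least 1 of the 3 cells, with summed signals of 12.79 to 15.19 against 3.68 to 6.64. Pdgfra did so in 1 cell, at 13.09. Of 7 pericyte markers only Cspg4, which oligodendrocyte precursors also express, reached it. Of 7 astrocyte markers only Aldoc did, with summed signals of 12.59 to 13.27 against 5.50 to 10.38, and of 10 neuron markers 4 did, at 11.22 to 13.01 against 7.51 to 11.94. The part of these markers in the Ncan, Bcan, Tnc and Sparcl1 values was not tested.

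NICD/p18 APs carried the highest mean of all sets for Ncan, Bcan, Vcan, Tnc and Sparc. They were taken at E14, and no other E14 cells were among these arrays. Embryonic age, electroporation and the introduced genes therefore cannot be told apart in comparisons with E11 or E12 cells. The labels were first checked on the introduced genes. One Notch1 probe set was at 13.44 ± 0.46 (SD, n = 4) against 4.34 ± 2.37 (SD, n = 19) in E11 AP-like cells, and the other was not raised, at 9.86 ± 0.72 (SD, n = 4) against 9.23 ± 2.58 (SD, n = 19). Cdkn2c (p18) was not raised either, at 7.42 ± 1.58 (SD, n = 4) against 7.79 ± 2.11 (SD, n = 19). Whether these probe sets lie inside the NICD and p18 inserts was not examined. The proliferation gene Mki67 was under the 20-copy signal in all 4 cells, at most 4.23, and at or above it in 15 of the 19 E11 AP-like cells.

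In these 4 cells Ncan was at 12.23, 13.06, 13.35 and 13.52, with a mean of 10 times the 20-copy signal. Bcan was at 12.87, 12.97, 13.27 and 13.77 with the lead probe set, at least 11.3-fold higher than in E11 AP-like cells. With the second it was between 10.97 and 12.60. Tnc was at 12.95, 13.13, 13.51 and 13.71, at least 12.2-fold higher. The second Tnc probe set was also high, at 11.09, 11.80, 12.73 and 12.75. None of these values overlapped with E11 AP-like cells. The share of all probe sets without overlap between these 4 cells and the E11 AP-like cells was not counted.

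Sparc was at 12.57, 12.85, 13.16 and 13.22, also above every E11 AP-like cell, whose highest value was 11.12. The Sparc mean was 9.4 times the 20-copy signal. Vcan was at 12.99, 13.08 and 13.11 in 3 cells and at 9.07 in the fourth, overlapping with the E11 AP-like cells. The Vcan mean was 5.09 times the 20-copy signal. Sparcl1 stayed low, between 0.03 and 1.60, and Tnr between -1.37 and 1.84. In all, 7 member probe sets of 5 genes were past the fold and higher and 0 lower, against 2.46% and 2.62% of all probe sets. The NICD/p18 and neurosphere means were 12.95 and 6.75 for Sparc and 0.70 and 7.21 for Sparcl1, and both sets share the E11 AP-like cells as controls.

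The arrays of E12, neurosphere and NICD/p18 cells were scaled alike (trimmed mean 500), unlike the E11 arrays, and scaling and condition cannot be told apart in comparisons with E11. Against the 3 E12 APs, the same 4 probe sets were higher past the fold and 0 lower in neurosphere APs (1.88% and 2.36% of all probe sets), and the same 7 and 0 in NICD/p18 APs (2.11% and 4.8%). Ncan then differed by 3.92 and 4.48 on the log2 scale, Bcan by 7.22 and 7.87, and Tnc by 8.43 and 10.59. The spike phe was higher on the NICD/p18 arrays, with a mean of 11.41 ± 0.93 (SD, n = 4) against 9.70 ± 1.21 (SD, n = 19) in E11 AP-like cells. Of 10 neuron markers, 8 reached the 20-copy signal in at least 1 NICD/p18 cell, against 3 of 10 in E11 AP-like cells, with summed signals of 11.68 to 15.40 against 7.51 to 11.94. Pdgfrb was the only one of 7 pericyte markers to reach it (summed signals 6.57 to 11.99, median 10.90) and Cldn5 the only one of 8 endothelial markers (5.84 to 11.97, median 6.64). Of 7 astrocyte markers, Aldoc, Aldh1l1 and Gfap did, at 13.44 to 14.03. Their part in the matrix values was not tested.

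**Figure D3:**
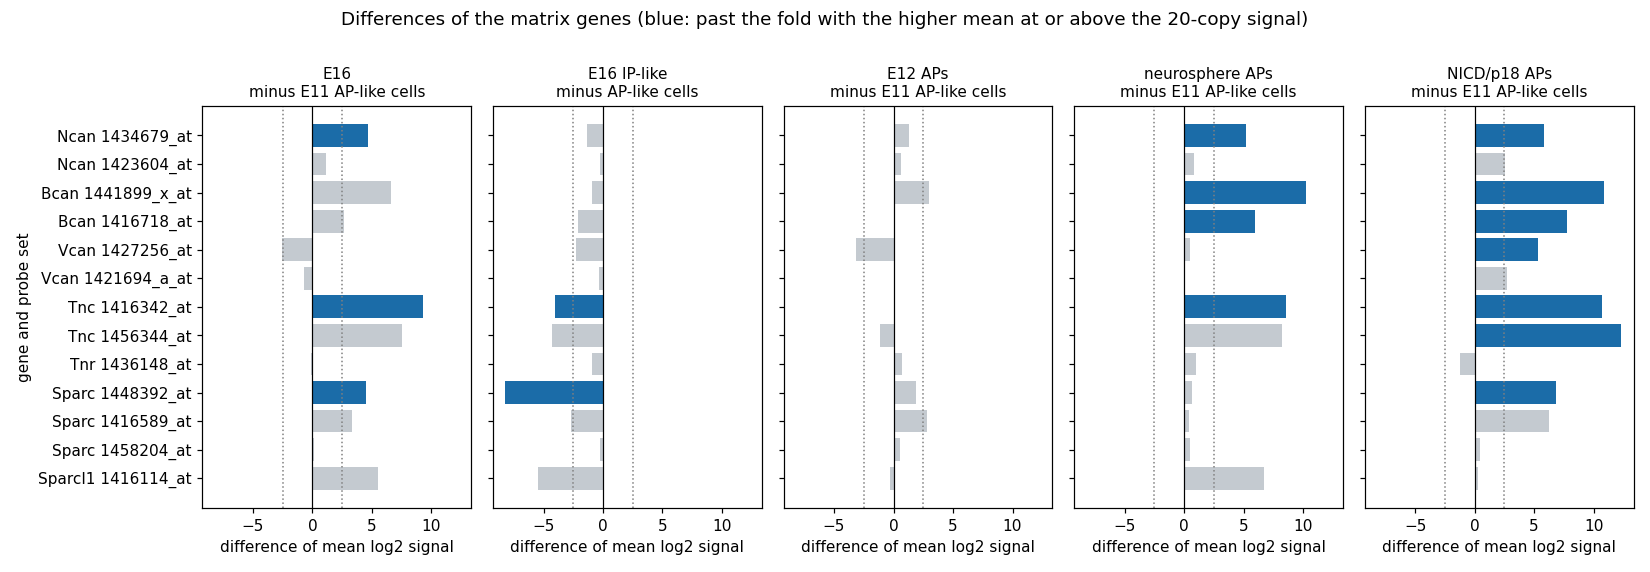
Difference of mean log2 signal for the 13 member probe sets past the filter in 5 comparisons, with dotted lines at 2.5 in either direction and blue bars where the difference was past the fold and the higher mean reached the 20-copy signal. No bar is blue in E12 APs, 4 are in neurosphere APs and 7 in NICD/p18 APs.

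Ranked by mean, neighbouring sets mostly lay closer than their pooled SD. For Ncan no 2 neighbours differed beyond it, from NICD/p18 APs at 13.04 to E11 IP-like cells at 4.17. For Bcan, NICD/p18 (13.22), neurosphere (12.57) and E16 AP-like cells (8.95) were each apart by more than the pooled SD, as were E12 APs (5.35) and E11 neuron-like cells (4.36). For Vcan, NICD/p18 APs (12.07) were apart from E11 neuron-like cells (9.70), and E12 APs (3.61) from E16 IP-like cells (1.93). For Tnc, NICD/p18 APs (13.32) exceeded E16 AP-like cells (11.88) by more than the pooled SD of 1.03, and the other neighbours, down to E11 AP-like cells at 2.59, did not differ beyond theirs. For Tnr no 2 neighbours did. For Sparc, NICD/p18 APs (12.95), E16 AP-like cells (10.60) and E12 APs (7.96) were each apart by more than the pooled SD, and so were E11 IP-like (1.83) and E11 neuron-like cells (0.33). For Sparcl1 the gap lay between E16 AP-like (5.97) and E11 neuron-like cells (1.07).

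**Figure D4:**
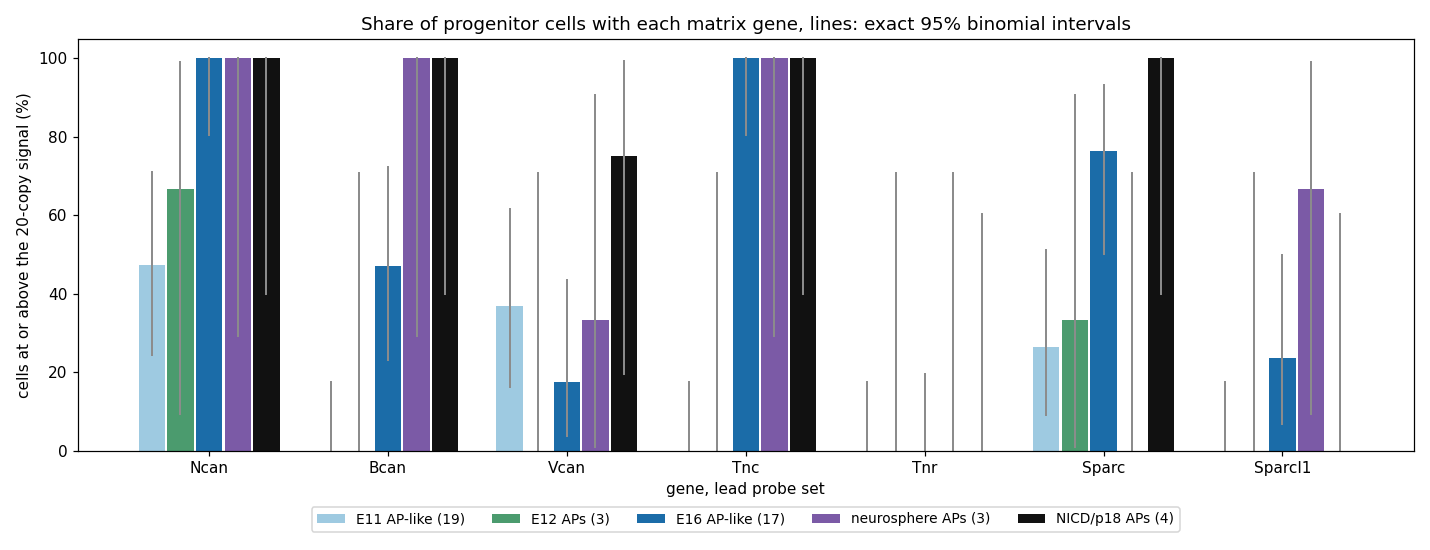
Percentage of cells at or above the 20-copy signal for each lead probe set in 5 sets of progenitor cells, with lines for exact 95% binomial intervals. Tnc is at 0% in E11 AP-like cells and E12 APs and at 100% in E16 AP-like, neurosphere and NICD/p18 cells, with wide intervals where only 3 or 4 cells were measured.

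Genes that make, bind or cut the same matrix were taken from fixed lists. Of 14 hyaluronan genes 7 were measured above the filter, and none was past the fold between E16 and E11 AP-like cells, with a median difference of -0.31 against -0.09 over all genes. Cemip2, Sdc3 and Fstl1 were chosen after their values were seen. In E11 IP-like cells Cemip2, a cell surface protein linked to hyaluronan turnover, was higher than in AP-like cells, at 11.98 ± 0.27 (SD, n = 2) against 7.15 ± 2.95 (SD, n = 19). Of 14 lectican-cleaving proteases and related genes 11 passed the filter. None was past the fold in any of the 7 comparisons, where between 0.294% and 3.62% of all probe sets were in each direction.

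Among 15 partners and receptors 10 passed the filter. Of these, 1 was higher and 1 lower at E16 than at E11, both in all cells and in AP-like cells. Over all probe sets the shares were 0.299% and 0.294% in all cells, and 0.666% and 0.835% in AP-like cells. Ptprz1, a receptor phosphatase that binds tenascins and carries chondroitin sulphate, was at 12.67 ± 0.47 (SD, n = 17) at E16 against 9.51 ± 3.06 (SD, n = 19) at E11. It was also past the fold in neurosphere APs, at 12.39 ± 0.50 (SD, n = 3), and in NICD/p18 APs, at 12.98 ± 0.65 (SD, n = 4). Fibronectin (Fn1) went the other way, at 7.12 ± 2.94 (SD, n = 17) at E16 against 10.49 ± 1.33 (SD, n = 19) at E11, with 4 of 17 and 16 of 19 cells at or above the 20-copy signal. The syndecan Sdc3 was higher in E16 IP-like cells, at 11.57 ± 0.88 (SD, n = 5) against 6.95 ± 2.10 (SD, n = 17) in AP-like cells.

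Of the 6 other Sparc relatives, 2 passed the filter. Fstl1, a secreted follistatin-like protein, was at 10.12 ± 3.97 (SD, n = 17) in E16 against 4.29 ± 3.92 (SD, n = 19) in E11 AP-like cells, and at 11.72 ± 0.36 (SD, n = 4) in NICD/p18 APs. It reached the 20-copy signal in 15 of 17, 3 of 19 and 4 of 4 cells.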

How the data were processed

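Amplified cDNA of 68 single cells was hybridized to 1 array each. The authors computed signal intensities with MAS5 and deposited them on a linear scale. Here they were quantile normalized over all 68 arrays and taken to log2, with no offset. Probe sets at or above the 20-copy signal in at least 1 cell were kept, 20721 of the 45101 and 10789 genes. Of the array's probe sets, 34958 had 1 gene symbol and 932 had several. The E11 and E16 cells were clustered per stage into 4 clusters by complete linkage on 35 markers. A cluster was named from the class with the most markers among its 10 leading genes. Intervals are exact Clopper-Pearson 95% intervals and cover counting error only. The limit of a share of 0 is 3 cells of the total, or the upper bound of the exact interval where only 3 cells were measured. Members, lists and rules were chosen with earlier results of these data known. The named genes are all members, the genes of each list past the fold between E16 and E11 cells, with at most 2 per direction, and the 3 genes most like each member high in at least 10 cells. Cemip2, Sdc3 and Fstl1 fall outside this rule and were named after their values had been seen. Cdkn2c and Mki67 are outside it too and serve to check the NICD/p18 labels, and the marker genes come from the marker lists. A marker gene was represented by its probe set with the highest mean among those kept, a choice made after its values had been seen, and by its highest probe set where none was kept. No 2 of the 2278 pairs of arrays were identical, and the highest correlation was 0.716. The fold comparison was tested on simulated, normally distributed values with added shifts. It was not tested on values split between a low and a high level, as those of Ncan in E11 AP-like cells. Computing used scipy 1.17.1, pandas 2.3.3 and numpy 2.4.6 under Python 3.11.15. The genome build behind the array annotation is not given in the sources used here.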

Additional observations from a re-analysis of the deposited data

Results flagged for a closer look

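In 7 of 35 sets of 4 to 10 cells, the lead probe set of a member had 1 cell far from the others by Dixon's ratio. For normally distributed values chance gives this in about 1 in 20 sets. Many values here were split between a low and a high level, and the sets reuse the same cells. The 7 of 35 therefore cannot be read against that rate. In E11 neuron-like cells, Ncan was at 10.81 in cell E11-32J (the others 11.71 to 11.88) and Vcan at 6.83 in cell E11-45O (10.42 to 11.04). In E16 IP-like cells, Ncan was at 4.35 in cell E16-82P (the others above 9.72 and up to 12.81) and Sparc at 9.54 in cell E16-81O (-0.42 to 1.86). Tnr was at 9.74 in the E16 neuron-like cell E16-80K (-1.10 to 0.49). Sparc was at 3.96 in cell E11-45G of the unnamed E11 cluster (8.28 to 8.77). Among NICD/p18 APs, Vcan was at 9.07 in cell M5K (12.99 to 13.11).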

How the results depend on the processing

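No paired analysis was possible because the labels give no replicate numbers shared between groups. Of the recomputed counts, 168 stayed within 1.5 times the reported value and 10 moved further, all 10 named here. Between E16 and E11 cells, the 1 higher member (Ncan) became 2, with Tnc added, with trimmed-mean scaling, with a floor of 64, with medians, and with the 58 E11 and E16 arrays normalized together. Between E16 IP-like and AP-like cells, the 2 lower members became 1 (Sparc) with a floor of 64 and with medians. Between E12 APs and E11 AP-like cells, the 0 higher members became 1 (Ncan) with signals as deposited and with medians, and ranged from 0 to 1 with single E12 cells left out (Sparc without the first and Ncan without the third). With single neurosphere cells left out, the 4 higher members ranged from 3 to 6. The second Bcan probe set was lost without the first or the second cell, and Vcan, Sparcl1 and the second Tnc probe set were added without the second. Without the second NICD/p18 cell the second Sparc probe set was added, for 8 in place of 7. Leaving out single IP-like cells, keeping in E11-31i, other linkage and 3 or 5 clusters left the members past the fold in the IP-like, neurosphere and NICD/p18 comparisons as they were. No difference that was past the fold changed direction in any alternative. The comparison against E12 APs was added after seeing the data. The count of neurosphere members was 5 with medians, with Sparcl1 added, and that of NICD/p18 members 8 with signals as deposited, with the second Sparc probe set added. Among single differences and cell counts, 737 moved by less than the spread between cells and 33 by more, without a turn in direction of any called one.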
